A study of Mus musculus with 8 samples.

Results

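The Gvin genes encode the very large inducible GTPases, and the Paneth cells of this series held counts for few of them. All gene IDs of the count table whose symbol in the mouse annotation starts with Gvin were taken, which gave 11 of 55414 IDs, all on the minus strand of chromosome 7. Of these, 4 had enough counts to be tested, 3 had between 1 and 3 counts in all 8 libraries together, and 4 had 0 in every library. The gene that leads the group, Gvin5, was chosen by its lower counts after TNF, while other interferon-inducible GTPases were higher. Its difference between the treatments, and theirs, are therefore given as a description.

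RNA had been sequenced from Paneth cells, secretory cells that sit at the bottom of the crypts of the gut and release antimicrobial peptides, purified on a cell sorter from wild-type mice. The mice, of the C57BL/6J strain in the study's methods, had received PBS (the control) or TNF (tumor necrosis factor, an inflammatory cytokine), and the intestine was taken after 3 hours. Each treatment had 4 libraries. The study describes its samples as taken from individual mice, and each library was taken as 1 mouse, though the labels of these libraries do not state it. The sources used here do not give the age, sex or dose. Library totals were 23824717 to 32576077 counts, and no libraries were duplicates of each other. Replicate 4 of TNF stood apart: the Y-linked genes Ddx3y and Eif2s3y had 241 and 182 counts there and 0 in the other 7 libraries, and its scaling factor was 0.4481 against 0.9952 to 1.357 elsewhere. The Paneth label fitted its markers: all 10 were tested and their summed level was 314000 to 463000 normalized CPM in PBS and 391000 to 1210000 in TNF, with Lyz1 the most abundant. Normalized CPM are counts divided by the library size after TMM scaling, in the usual CPM unit. The sum of 1210000 is that of TNF replicate 4 and is not a share of its counts. The factor of 0.4481 raises all normalized values of that library above its plain CPM. Bulk values do not tell fewer cells from less RNA per cell.

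Very large inducible GTPases are relatives of the dynamins, and their coding sequence lies mostly in a single, exceptionally long exon. They were found as genes that interferons switch on, like the guanylate-binding proteins (Gbp), the immunity-related GTPases (IRG) and the Mx proteins. Gbp and IRG proteins attack the membranes in which pathogens hide inside cells, and Mx proteins restrict viruses. What the Gvin proteins do is much less known.

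The 11 Gvin IDs spanned 731 kb of GRCm39. At one end of the cluster lay the ID of Gvin5 that is annotated as a transcribed unprocessed pseudogene (ENSMUSG00000086513, chr7:105473430-105480722, a single block of 7293 bases). A second ID with the symbol Gvin5 (ENSMUSG00000109685, chr7:105472471-105473013, 543 bases) followed 416 bases downstream. It belongs to the class TEC, loci that still await experimental testing. The protein-coding Gvin2 (ENSMUSG00000078606, chr7:105544346-105603174) and Gvin1 (ENSMUSG00000045868, chr7:105755763-105814533) lay further along. Between them was Gvin-ps3 (ENSMUSG00000095649, chr7:105675958-105683253), annotated as an unprocessed pseudogene of 7296 bases. Beyond Gvin1 came Gvin-ps5 (ENSMUSG00000095457, chr7:105922621-105929895), Gvin-ps6 (ENSMUSG00000053541, chr7:106017055-106023676), the pseudogene ID of Gvin4 (ENSMUSG00000063286, chr7:106103599-106110878) and Gvin3 (ENSMUSG00000073902, chr7:106195950-106203242). The last members, Gvin-ps2 (ENSMUSG00000099241, chr7:105574207-105577799) and Gvin-ps4 (ENSMUSG00000098934, chr7:105785611-105789206), lay inside the spans of Gvin2 and Gvin1.

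Despite its annotation, the Gvin5 block of the reference genome was open over its whole length. A frame from a start codon to a stop codon ran for 2430 codons, which was 100% of the block. The same length was found in Gvin3, and Gvin1 and Gvin2 each held a frame of 2427 codons in their long exon. Gvin-ps3 was interrupted, with a longest frame of 1535 codons (63.1% of its block). An open frame is a property of the reference sequence and says nothing of whether a protein was made.

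How far the counts can be given to single copies depends on how much sequence the copies share. Gvin5 and Gvin-ps3 were 89.52% identical when their blocks were aligned, with 826 differing columns, and their longest identical run was 334 bases. The gap-free stretch of 60 bases with the most differences is shown because reads over it tell these copies apart. It has 22 differences, in capitals, and is given 5′ to 3′ on the minus strand of GRCm39, for Gvin5 at chr7:105475728-105475787 and for Gvin-ps3 at chr7:105678252-105678311.
Gvin5: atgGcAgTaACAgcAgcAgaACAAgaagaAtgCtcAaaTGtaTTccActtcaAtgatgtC
Gvin-ps3: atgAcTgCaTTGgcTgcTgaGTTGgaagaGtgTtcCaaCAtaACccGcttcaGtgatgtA

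Every run of 75 bases in the exons of a member (a length chosen here, within the range of average read lengths described for the study's data) was searched for in the whole genome. In Gvin5, 61.55% of these windows were unique (4443 of 7219), and in its TEC ID all were. In Gvin-ps3 only 21.85% were unique (1578 of 7222), and 67.75% also occurred in Gvin-ps5, with which it was 99.24% identical. Gvin1 and Gvin2 were near copies of each other (99.97% identity over their long exon) and kept 150 unique windows each, which was 1.72% and 1.68%. Gvin3, the Gvin4 pseudogene and Gvin-ps6 were well separated, with 94.43%, 92.78% and 99.95% unique windows.

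The nearest annotated start upstream of Gvin5 is that of the lncRNA Gm74241, 24.4 kb away on the same strand. An exon of Gm74241 covers 1257 bases (17.2%) of the Gvin5 block, and its ID is not in the count table. The counterpart for Gvin-ps3 is the start of Gm74151, 33.3 kb upstream. Beginning just upstream of the Gvin5 block, a stretch of 60987 aligned bases was 99.65% identical between the Gvin5 locus and the Gvin-ps3 locus, against 88.56% for the blocks of the genes themselves. A further stretch of 2708 aligned bases, which includes the first part of the Gvin5 block, was 99.26% identical to sequence upstream of the Gvin-ps3 block. The 300 bases around both lncRNA starts (250 before, 50 after) were identical over the 298 bases that they share in alignment. The 250 bases before the Gm74241 start (chr7:105505154-105505403) and before the Gvin1 start (chr7:105814534-105814783) are shown in lower case, 5′ to 3′ on the minus strand of GRCm39, because they stand for 2 kinds of start found in the cluster.
Gm74241, upstream of Gvin5: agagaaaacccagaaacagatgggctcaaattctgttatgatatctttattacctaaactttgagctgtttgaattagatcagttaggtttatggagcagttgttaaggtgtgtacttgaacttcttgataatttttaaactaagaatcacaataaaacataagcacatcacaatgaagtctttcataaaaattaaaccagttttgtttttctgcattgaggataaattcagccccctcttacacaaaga
Gvin1: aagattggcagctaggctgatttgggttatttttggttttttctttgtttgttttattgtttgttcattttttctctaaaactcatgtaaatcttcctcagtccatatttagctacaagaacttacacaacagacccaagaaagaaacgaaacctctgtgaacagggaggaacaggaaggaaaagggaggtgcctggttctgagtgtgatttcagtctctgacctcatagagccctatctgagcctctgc

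The window of the Gm74241 start had 5 matches of at least 150 bases on chromosome 7. The start of Gm74241 itself and that of Gm74151 matched over 300 bases, stretches within the spans of Gvin2 and Gvin1 matched at 93.1% over 189 bases, and a stretch between genes matched at 73.3%. The window of the Gvin1 start also had 5 matches, all at annotated starts: those of Gvin1, Gvin2 (99.7%), and the lncRNAs upstream of Gvin-ps6 (Gm74155, 81.8%), Gvin4 (Gm72977, 99.0%) and Gvin3 (Gm57206, 80.0%). In the Gvin5 and Gvin-ps3 loci it had 0 matches. The start of Gm74153 was of neither kind, and for Gvin-ps5 no start was examined. Gvin5 and Gvin-ps3, which had high counts in these cells, lie downstream of annotated starts of the first kind. The partial matches lie upstream of Gvin-ps2 and Gvin-ps4, which were at 0 in all libraries, and of Gvin-ps5, which had few counts. Whether transcription of either gene begins there was not tested.

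Letters known from interferon-responsive and NF-kB-responsive promoters were searched for on both strands of these 300-base windows. They were the core of the interferon-stimulated response element (GAAA and GAAA with any 2 bases between, found in 3.96% of the windows of 21770 protein-coding genes), the gamma-activated site (TTC and GAA with any 3 bases between, 9.01%) and a kappa B site (GGGA and TTCC with any 2 bases between, 1.43%). The windows upstream of Gvin5 and Gvin-ps3 and those of Gvin1, Gvin2, Gvin-ps6 and Gvin4 held 0 matches to any of them. The window of Gm57206, upstream of Gvin3, held 1 match to the interferon-stimulated element, at position -136. So did the window of the lncRNA Gm74153, which starts just upstream of Gvin1 and covers 63.8% of Gvin-ps4, at position -55. These are matches of letters in the reference and were not measured in the cells.

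By counts and by normalized CPM, which take no account of shared sequence, Gvin5 was the most abundant Gvin gene in every PBS library. Its pseudogene ID had 3113, 2078, 1897 and 3333 counts in PBS replicates 1 to 4, which were 83.4, 77.3, 74.7 and 75.4 normalized CPM. In TNF replicates 1 to 4 it had 212, 104, 82 and 81 counts, or 7.52, 3.6, 2.88 and 6.96 normalized CPM. The 4 PBS values lay close together, and each was far above each TNF value. The mean was 77.7 ± 3.96 normalized CPM in PBS and 5.24 ± 2.34 in TNF (SD, n = 4 each), a log2 fold change of -3.92 (SE 0.29), or 15.1-fold lower. Without TNF replicate 4 the log2 fold change was -4.04.

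**Figure D1:**
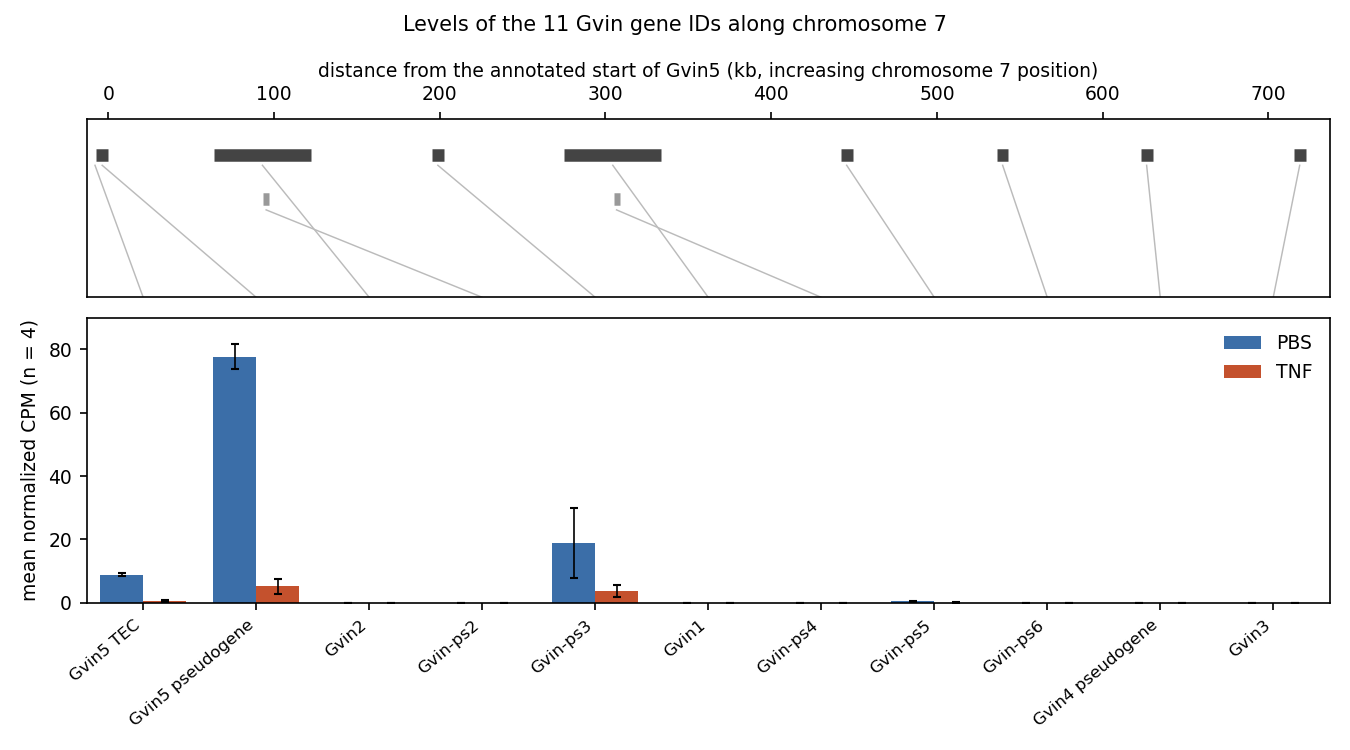
Upper panel: the 11 Gvin gene IDs to scale along chromosome 7, in kb from the start of Gvin5, with members inside other spans in light grey and lines leading to the bars. Lower panel: mean normalized CPM (bars, n = 4) with SD (error bars) in PBS and TNF; Gvin5 stood at 77.7 in PBS, Gvin-ps3 at 18.9, and 7 of the 11 IDs were at or near 0.

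The TEC ID, for which all 75-base windows were unique, moved in step with its neighbour. It had 9.33, 8.44, 9.10 and 8.48 normalized CPM in PBS and 0.887, 0.381, 0.140 and 0.859 in TNF, so that the groups did not overlap. Its log2 fold change was -4.06 (SE 0.37). For every 100 counts on the pseudogene ID there were 10.9 to 12.2 on the TEC ID in PBS and 4.88 to 12.3 in TNF, where the lowest value rested on 4 counts in TNF replicate 3. Both IDs thus had nearly one ratio in 7 of the 8 libraries, and whether they belong to 1 transcript was not tested.

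Gvin-ps3 was the other member with high counts. It had 20.1, 10.8, 10.7 and 34.2 normalized CPM in PBS (749, 290, 272 and 1513 counts) and 3.87, 2.18, 2.84 and 6.53 in TNF (109, 63, 81 and 76 counts). Every TNF value was below every PBS value, but the PBS libraries differed among themselves far more than they did for Gvin5. The mean fell from 18.9 ± 11.1 to 3.85 ± 1.91 normalized CPM (SD, n = 4 each), a log2 fold change of -2.37 (SE 0.43). It was -1.96 without PBS replicate 4 and -2.67 without TNF replicate 4.

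Gvin-ps5, which shares most of its sequence with Gvin-ps3, was near the floor of detection. It had 22, 14, 13 and 17 counts in PBS, and 0, 0, 0 and 4 in TNF, the 4 counts being in replicate 4. Its log2 fold change was -3.38 (SE 0.88). Without TNF replicate 4 all TNF libraries were at 0, and against 3 counts in each of them it was at least 4.77-fold lower than in PBS.

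**Figure D2:**
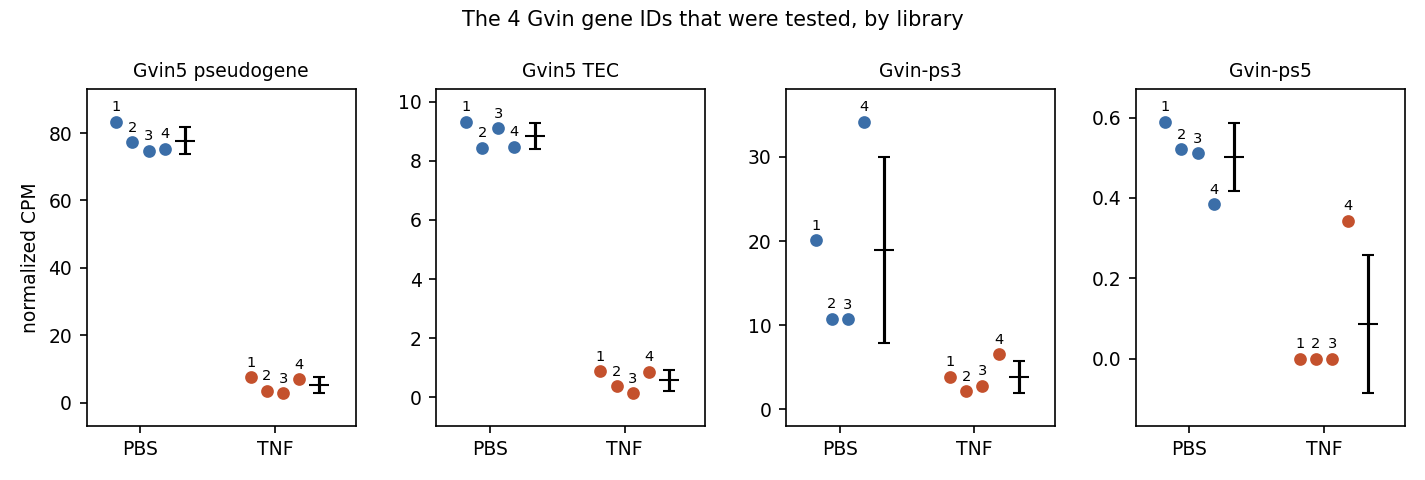
Normalized CPM of the 4 tested Gvin gene IDs in each library (numbered points) with mean and SD (black). The PBS points of both Gvin5 IDs lie close together, those of Gvin-ps3 run from 10.7 to 34.2, and in no panel does a TNF point reach a PBS point.

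The remaining 7 members were not tested. Gvin2 had 1 and 2 counts in PBS replicates 1 and 2, Gvin1 had 1 count in PBS replicate 4, and Gvin-ps6 had 2 counts in PBS replicate 1. These genes were at 0 in the other libraries. Gvin3, the Gvin4 pseudogene, Gvin-ps2 and Gvin-ps4 were at 0 throughout. A count of 0 allows up to 3 counts in a library, for counting error only. For Gvin3, Gvin-ps6 and Gvin4, whose windows were nearly all unique, the sequence did not hide reads.

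For Gvin1 and Gvin2, the protein-coding members, the limit was the sequence they share. Of the windows of Gvin5, 16.89% also occurred in Gvin2, which at an even spread would be 320 to 563 counts per PBS library. Gvin2 had 0 to 2, so reads of that shared sequence had not been added to Gvin2 in such numbers. The sources used here do not say how reads with several matches were treated. If only unique reads were counted, the 150 unique windows of Gvin1 would have held 64 to 113 counts per PBS library at the rate of Gvin5, and 0 or 1 was found. In TNF the same rate would give 7.16, 3.51, 2.77 and 2.73 counts in replicates 1 to 4, and 0 was found for Gvin1 and Gvin2. In replicates 3 and 4 such a level was under the limit that a count of 0 allows.

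The same scale changes the order of Gvin5 and Gvin-ps3. Per 1000 unique windows, Gvin5 had 701, 468, 427 and 750 counts in PBS and Gvin-ps3 had 475, 184, 172 and 959. In TNF, Gvin5 had 47.7, 23.4, 18.5 and 18.2 and Gvin-ps3 had 69.1, 39.9, 51.3 and 48.2. Gvin-ps3 was thus the higher of both in all 4 TNF libraries and in PBS replicate 4, and the lower in the other 3 PBS libraries. This order can be read as one of levels only if reads with several matches were left out, which is not known. On this scale Gvin-ps5 stayed at 6.08 to 10.3 in PBS, far below Gvin-ps3.

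**Figure D3:**
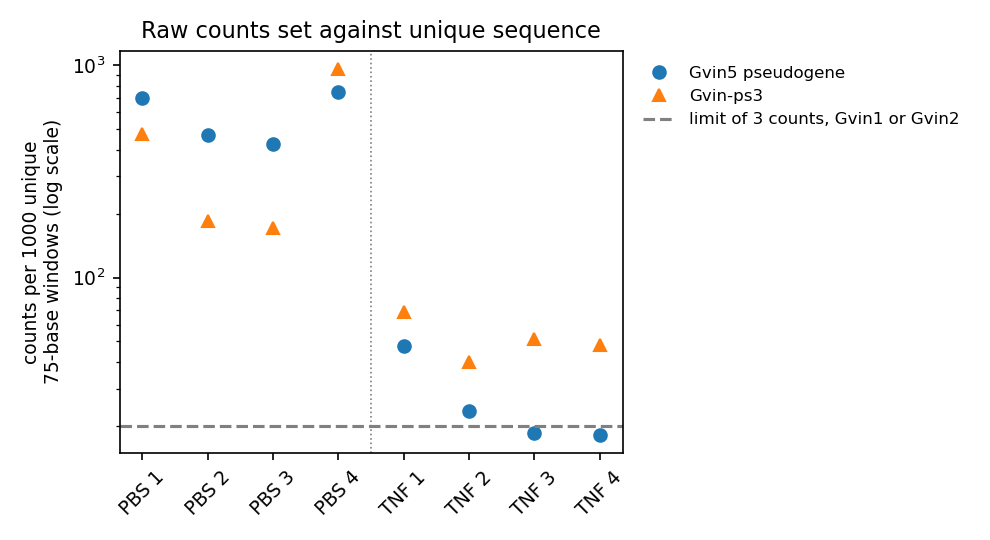
Raw counts per 1000 unique 75-base windows (log scale) of Gvin5 and Gvin-ps3 in each library, with the level that 3 counts on the 150 unique windows of Gvin1 or Gvin2 would give (20, dashed). The PBS points lie far above the dashed line, and the Gvin5 points of TNF replicates 3 and 4 (18.5 and 18.2) lie just below it.

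All 4 tested members were called lower at an adjusted p under 0.05 and 0 were called higher. Of all 13368 genes tested, 19.6% were called lower, 23.4% higher and 43.0% in either direction, and the median log2 fold change was 0.03. In 19.7% of all tested genes the TNF values were all below the PBS values, as they were for the 4 members, and in 42.1% the groups did not overlap in either direction. Since the group was chosen for this contrast, nothing is read from these counts. The 4 members were tested only because they passed a filter on low counts that PBS levels alone could meet. Summed over all members, the log2 fold change was -3.47 (SE 0.29), and over all but the Gvin5 IDs it was -2.38 (SE 0.43). Among the tested genes, 17 had a lower log2 fold change than the Gvin5 pseudogene ID.

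The make-up of the Gvin counts also differed between the groups. The Gvin5 IDs held 81.7%, 88.3%, 88.2% and 70.8% of all Gvin counts in PBS and 68.5%, 64.6%, 51.5% and 53.2% in TNF. The widest 95% exact binomial (Clopper-Pearson) interval was that of TNF replicate 3, from 43.7% to 59.3% of 167 counts. All TNF values were below all PBS values, though TNF replicate 1 and PBS replicate 4 lay within 3 percentage points. For every 100 counts on the Gvin5 pseudogene ID there were 24.1, 14.0, 14.3 and 45.4 on Gvin-ps3 in PBS and 51.4, 60.6, 98.8 and 93.8 in TNF. This ratio uses the contrast that chose the group and was not tested.

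Gvin-ps3 was uneven between libraries of one treatment, and its order was compared with that of 4 nuclear lncRNAs chosen after its values had been seen. Of these, Malat1 and Neat1 had a like order in normalized CPM, and Xist and Kcnq1ot1 did not in both groups. The likeness was not particular to these lncRNAs. After each group was centred on its own mean, Gvin-ps3 had a Pearson r of 0.9546 with Malat1 and 0.9414 with Neat1. Protein-coding genes such as Ep400 (0.9921) and Stap2 (0.9867) were more alike. Without centring, r was 0.3451 with Malat1 and 0.7854 with Neat1. Malat1 had levels of 10.3, 5.02, 5.28 and 38.1 normalized CPM in PBS and 9.69, 7.92, 9.44 and 32.9 in TNF. In normalized CPM, replicate 4 was the highest of its group and replicate 1 the next, for Malat1 and for Gvin-ps3, in both groups. In TNF, the place of replicate 4 for Gvin-ps3 rested on the scaling factor of that library, 0.4481. Counts of Gvin-ps3 in TNF replicates 1 to 4 were 109, 63, 81 and 76, highest in replicate 1. Those of Malat1 were 273, 229, 269 and 383, highest in replicate 4. Neat1 had 11, 4.31, 4.22 and 27.7 in PBS and 2.80, 2.18, 2.11 and 19.3 in TNF, and replicates 4 and 1 again led. Xist had 51.9, 24.4, 26.9 and 162 in PBS and 50.5, 36.4, 41.5 and 0.343 in TNF. It led in the same PBS libraries but was lowest in TNF replicate 4. That library alone had counts of the Y-linked Ddx3y and Eif2s3y (241 and 182), and the part of sex in its Xist value was not tested. Kcnq1ot1 had 4.45, 5.02, 5.04 and 4.66 in PBS and 5.11, 2.46, 2.6 and 2.15 in TNF, and was not high in replicate 4 of either group. Gvin5 did not share the rise in PBS replicate 4, where it had 75.4 against 74.7 to 83.4 in the others. In TNF its highest normalized values were also in replicates 1 and 4, but its counts were 212, 104, 82 and 81. The high value of TNF replicate 4 thus rested on the scaling factor of that library. None of these 4 lncRNAs was called between the treatments, and their part in the Gvin-ps3 result was not tested.

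**Figure D4:**
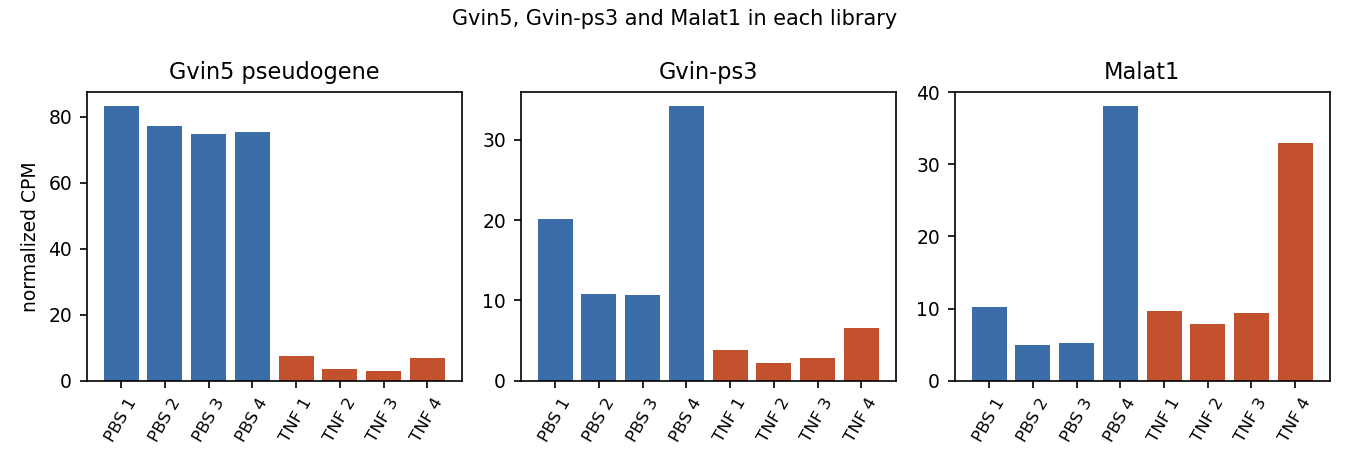
Normalized CPM (bars from 0, 1 per library) of the Gvin5 pseudogene ID, Gvin-ps3 and Malat1. Malat1 is high in replicate 4 of both groups (38.1 and 32.9), Gvin-ps3 is highest in PBS replicate 4 (34.2), and Gvin5 is even across PBS.

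Per kb of exon, the scale on which different genes can be compared, Gvin5 was well expressed in PBS. Its level was 10.6 ± 0.544 normalized CPM per kb in PBS and 0.718 ± 0.320 in TNF (SD, n = 4). Among 13316 tested genes with a length it ranked 1173 in PBS and 9131 in TNF. Among the 218 tested genes annotated as pseudogenes, by normalized CPM, it ranked 4 in PBS and 24 in TNF, and Gvin-ps3 ranked 9 and 32.

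In PBS, Gvin5 alone was above the summed IRG family and far above the summed Gbp family. The Gbp genes summed to 0.367, 0.563, 0.462 and 1.34 normalized CPM per kb in PBS and 59.4, 65.3, 66.2 and 68.4 in TNF. The IRG genes summed to 6.21, 6.26, 6.51 and 6.57 in PBS and 40.9, 44.1, 44.5 and 51.7 in TNF. In both families all TNF sums lay above all PBS sums. Of the Gvin5, Gbp, IRG and Mx levels added up, Gvin5 was 56.5% to 63.5% per PBS library and 0.354% to 1.02% per TNF library.

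**Figure D5:**
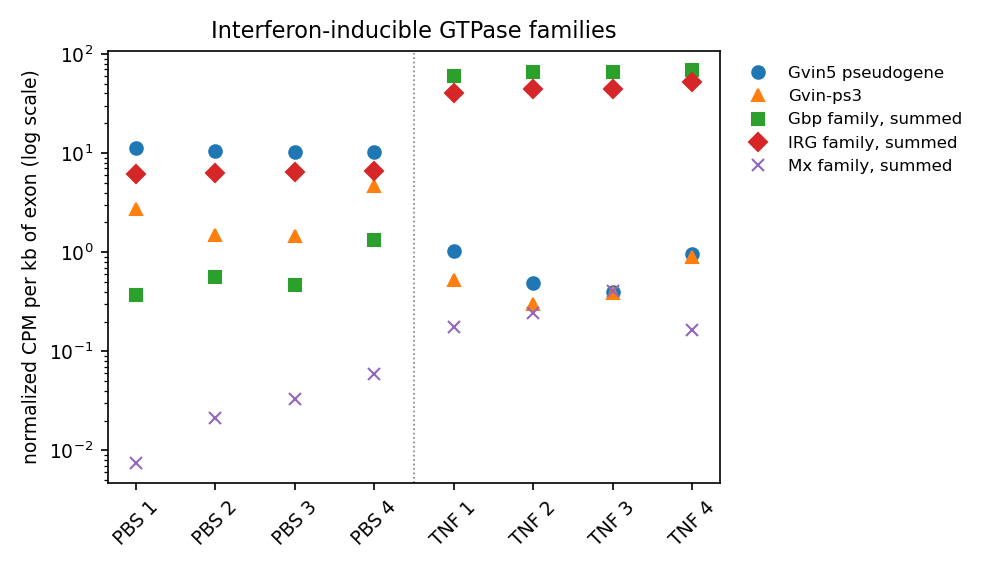
Normalized CPM per kb of exon (log scale) in each library for the Gvin5 pseudogene ID, Gvin-ps3 and the summed Gbp, IRG and Mx genes. Gvin5 lies above the other families in all PBS libraries (10.2 to 11.4) and below the Gbp and IRG sums in all TNF libraries (0.395 to 1.03).

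Of 11 Gbp IDs, 5 were tested and all 5 were called higher in TNF, beside 23.4% of all tested genes. Their median log2 fold change was 4.08. As the rise of these families took part in the choice of the group, their values are a description here and nothing is read from the calls. Gbp2 had 6, 16, 15 and 86 counts in PBS and rose from a mean of 0.823 to 153 normalized CPM, or by 7.46 on the log2 scale (SE 0.53). Gbp7 rose by 4.08 (SE 0.26) and Gbp5 by 6.98 (SE 0.41). PBS replicate 4 had the highest Gbp sum of its group, and its Gvin5 level lay within the range of the other PBS libraries.

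Of the 12 IRG IDs in the table, 8 were tested and 8 were called higher, beside 23.4% of all tested genes. Their median log2 fold change was 2.86. Irgm1, a regulatory IRG protein, was already present in PBS and rose from 21.0 to 100 normalized CPM, or by 2.25 on the log2 scale (SE 0.16). Irgm2, another regulatory member, rose from 3.52 to 34.0. Ifi47 rose from 3.54 to 40.8, with 26.4, 32.1, 22.7 and 81.8 in TNF replicates 1 to 4, so that replicate 4 carried much of its TNF mean. Its counts there were 745, 929, 646 and 952, and the high value of replicate 4 came largely with the scaling factor of 0.4481. Of the Mx genes 0 passed the filter, and Mx2 had 1, 1, 3 and 2 counts in PBS and 18, 21, 38 and 7 in TNF. Tgtp1 and Tgtp2 are near copies of each other, and their counts are uncertain.

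The genes through which interferons signal were measured beside these families. Of 18 listed, 18 were tested, 16 were called higher and 1 lower, beside 23.4% and 19.6% of all tested genes, with a median log2 fold change of 1.41. The most abundant were Jak1, a kinase of the receptors (79.2 to 140 normalized CPM), Irf1, a transcription factor (28.2 to 144), and Jak2, a kinase of the interferon gamma receptor (29.2 to 106). Tyk2, a kinase of the type I receptor, fell by 0.42 on the log2 scale (SE 0.11, adjusted p = 0.0102 by edgeR). Irf3 was not called (log2 fold change 0.17, SE 0.14, adjusted p = 0.337 by edgeR). With library size alone as the scaling, the numbers called were 8 higher and 0 lower.

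The other genes of the region were measured too. Within 500 kb of a Gvin gene there were 68 other gene IDs, of which 41 were at 0 and 11 were tested. Of these, 4 were called higher and 3 lower, beside 23.4% higher and 19.6% lower over all tested genes, and the median log2 fold change was 0.24. With library size alone as the scaling, 0 were called higher. The higher ones were Fhip1b (log2 fold change 0.84, SE 0.13), Rrp8, an rRNA methyltransferase (0.63, SE 0.13), Ilk, the integrin-linked kinase (0.58, SE 0.15) and Taf10, a TFIID subunit (0.44, SE 0.15). The lower ones were Smpd1, the acid sphingomyelinase (-0.72, SE 0.14), Trim3 (-0.89, SE 0.26) and Tpp1, a lysosomal peptidase (-0.70, SE 0.11). Arfip2 (0.09), Timm10b (0.24) and Mrpl17 (0.65, adjusted p = 0.0538 by edgeR) were not called. Gm27149, a transcribed unprocessed pseudogene upstream of Gvin-ps3, had 6, 5, 3 and 23 counts in PBS and 3, 0, 1 and 1 in TNF. It lies in a stretch 99.26% identical to sequence that includes the first part of the Gvin5 block itself. Reads of Gvin5 and Gm27149 may therefore not be told apart, and its counts are uncertain.

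Genes whose log2 normalized CPM ran most like Gvin5 over the 8 libraries were sought among 8489 genes with a mean of at least 5. They were Map3k21 (Pearson r = 0.9965), Fam13a (0.9964), Engase, a deglycosylating enzyme (0.9939), Fam107b (0.9934) and Rgmb, a co-receptor for bone morphogenetic proteins (0.9932). Their log2 fold changes ran from -2.63 for Fam13a to -1.56 for Engase. Over the same 8 libraries Gvin-ps3 had r = 0.8995 with Gvin5. After each group was centred on its own mean, the most alike were Yes1, a kinase of the Src family (0.9624), Adgrg7, an adhesion receptor (0.9497), Engase (0.9469), Rbm38 (0.9460) and Map3k21 (0.9438), and Gvin-ps3 had r = 0.4992. All these points share the same libraries and scaling.

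Markers of other cell types were measured beside the Gvin result, and their calls stand beside 23.4% higher and 19.6% lower over all tested genes. Of 10 immune markers 3 were tested and 1 (Cd52) was called higher, the T cell and B cell markers Cd3e and Cd79a were at 0 in all libraries, and the sum was 54.1 to 74.2 normalized CPM in PBS and 61.8 to 116 in TNF. Cd74 made up most of it except in TNF replicate 4, which had 64.3 normalized CPM of Lyz2 and 47.1 of Cd74. Stroma markers summed to 0.186 to 0.452 in PBS and 1.23 to 1.83 in TNF, led by Vim. Stem cell markers (led by Olfm4) summed to 1890 to 2780 and 1710 to 2240, and 4 of 6 were called lower. Goblet cell markers (led by Spink4) summed to 7150 to 11200 in PBS and 11200 to 25400 in TNF, and 1 of 7 was called higher and 2 lower. Enteroendocrine markers (led by Chgb) summed to 9.82 to 13.0 and 33.8 to 68.2, and 4 of 5 were called higher. Of 5 tuft cell markers 0 were called, with sums of 16.0 to 37.9 and 10.2 to 64.5. The part of these cells in the Gvin result was not tested.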

How the data were processed

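RNA-seq counts per gene came from 4 PBS and 4 TNF libraries of sorted Paneth cells. The authors deposited raw counts for 55414 Ensembl gene IDs, with no normalization. The submitters' processing notes name FastQC 0.12, STAR 2.7.10a, DESeq2 and the genome mm39. For its pooled re-alignment the study names a GENCODE annotation and default STAR settings, without saying that they made this table. The table's counter, annotation, strand setting and treatment of reads with several matches were not given in the sources used here, so counts of near-identical or overlapping genes are uncertain. GENCODE release 39 (GRCm39) gave names and positions for 54749 IDs, and 665 were unmatched.

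Genes were tested with edgeR 4.0.16 (quasi-likelihood F test, TMM, filterByExpr) in R 4.3.3, with Benjamini-Hochberg adjustment over all tested genes and a threshold of 0.05. SE is the standard error of a log2 fold change, computed as its size over the square root of F. Fold changes are TNF against PBS. The procedure was tested on simulated data. Sequences were read from the GRCm39 genome, compared with blastn and pairwise alignment, and searched in windows of 75 bases. Intervals cover counting error only.

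The members and lists were chosen with earlier results of these data known. All Gvin IDs are named. The other named genes are the 3 most abundant tested genes of the Gbp, IRG and interferon signalling lists and any of them called lower, the most abundant gene of most marker lists, the 10 most abundant tested neighbours, and the 5 genes most like Gvin5 on each scale. Any other was chosen after its values were seen. Alternatives were RLE scaling, library size alone, other filters, DESeq2 1.42.0, limma-voom (limma 3.58.1), a replicate block, other neighbour distances and leaving out each library. The result of 1 marker list is not reported here.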

Additional observations from a re-analysis of the deposited data

Results flagged for a closer look

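Gvin-ps5 in TNF was marked because 1 library lay far from the others of its group. TNF replicate 4 had 0.343 normalized CPM, which was 4 counts, and the other 3 TNF libraries had 0. With 3 values at 0, any count in the fourth library is marked, so the usual chance rate of such marks does not apply here.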

How the results depend on the processing

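The falls of the Gvin IDs took part in the choice of the group, so their values under the 15 alternatives are given as a description only. Gvin-ps5 was not tested with a filter of 1 CPM in 4 libraries. The log2 fold change ran from -4.35 to -3.70 for the Gvin5 pseudogene ID, -4.54 to -3.68 for the TEC ID, -2.93 to -1.96 for Gvin-ps3, -3.96 to -3.28 for the sum of all and -2.95 to -2.0 for the sum without Gvin5. Library size alone shifted the median log2 fold change of all genes to -0.378 and the genes called higher from 3122 to 757 (23.8% of the calls, against 54.3%). Relative to that median, Gvin5 was at -3.97 and Gvin-ps3 at -2.55. With that scaling, 8 interferon signalling genes were called higher and 0 lower, and 0 neighbours were called higher. With no filter beyond 1 count, 8 Gbp and 1 Mx genes were called higher. With the filter of 1 CPM, which tests fewer genes, 5 IRG genes were. Leaving out 1 library gave 0 to 1 Mx genes called higher, 1 without any of the PBS libraries or TNF replicate 4. The replicate numbers did not pair the libraries: correlations of same-numbered deviations were 0.023, 0.066, -0.144 and -0.126. With the replicate number as a block the log2 fold change was -4.00 for the Gvin5 pseudogene ID, -4.12 for the TEC ID, -2.25 for Gvin-ps3, -3.37 for Gvin-ps5 and -3.55 for all Gvin counts, and 5087 genes were called against 5747. Depth limits Gvin1 and Gvin2, which have few unique windows, and Gvin-ps5 in TNF. The cause of these changes was otherwise not tested.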
